A study of Mus musculus with 3 samples.

Results

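Endothelial cells line the vessels of a tumour, and the ones described here were picked out of dissociated mouse rhabdoid tumours by their transcripts. A barcode counted as an endothelial cell when at most 15% of its unique molecular identifiers (UMIs, each standing for 1 captured transcript) came from mitochondrial genes and when it held UMIs of at least 3 of the 7 genes Cldn5, Pecam1, Flt1, Kdr, Cdh5, Ptprb and Ly6c1. It also had to hold UMIs of fewer than 2 of the immune genes C1qa, Tyrobp and Ctss and of fewer than 2 of the mural genes Rgs5, Vtn and Kcnj8. The 3 tumours gave 138, 118 and 154 such cells, together 410 of 28380 barcodes.

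The study examined where rhabdoid tumours arise and profiled single cells of 3 fresh R26-SHH tumours with 3′ droplet sequencing. All 3 tumours carry the genotype Rosa26-CreERT2::Smarcb1flox/flox, in which a Cre recombinase made from the ubiquitous Rosa26 locus becomes active after tamoxifen, given to the mother during gestation, and removes floxed Smarcb1 sequence from both alleles. There was no untreated or Cre-negative group, the animals' age was not given for these samples in the sources used here, the study obtained tumours of this kind after tamoxifen early in gestation, and the samples, labelled as tumour cells, were dissociated whole and not sorted, so that vessel cells, immune cells and tumour cells were captured together. The protocol in the labels names a debris removal step for samples with much blood, but not whether these tumours needed it. Because Cre is ubiquitous, cells other than tumour cells could recombine too. The comparisons below were made between cell classes within each tumour, with the tumour as the replicate (n = 3).

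Endothelial cells of the brain form the blood-brain barrier: tight junctions seal the gaps between them, vesicle traffic is kept low, and transporters in their membranes carry glucose, amino acids, lipids and hormones in and pump foreign molecules out. Wnt ligands from neural cells switch this programme on through Frizzled receptors and beta-catenin. During angiogenesis, VEGF induces tip cells at the front of a sprout, which express Esm1, Apln and Angpt2, while Delta-like 4 on the tip cell signals through Notch to the stalk cells behind it. Pericytes and smooth muscle cells, together called mural cells, share the basement membrane with the endothelium.

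Endothelial cells made up 1.44% (95% exact binomial interval 1.21 to 1.70), 1.69% (1.40 to 2.03) and 2.99% (2.55 to 3.50) of the barcodes within the mitochondrial limit in tumours 1, 2 and 3, a mean of 2.04 ± 0.833% (SD, n = 3). With at least 4 of the 7 genes asked for, the shares were 1.28, 1.44 and 1.94%. These and all later intervals cover counting error only, and dissociation can change the share of a cell type. The deposited matrices hold 12467, 9485 and 6428 barcodes, whereas the protocol aimed at 1000 recovered cells per sample. The endothelial cells held 928598, 520463 and 1273581 UMIs, with medians of 4679.5, 2173 and 1625.5 UMIs per cell against 7142.5, 2664.5 and 7397 in all other cells. Depth within the class was uneven, since the 5 deepest cells held 15.9%, 17.6% and 30.7% of the endothelial UMIs. Of the tumours' barcodes, 88 occurred in more than 1 library, and 1 of those was an endothelial cell. The other 3 classes served for comparison: 114, 53 and 69 mural cells, 1338, 1073 and 353 immune cells, and 7970, 5720 and 4566 remaining cells, which include the tumour cells.

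Endothelial genes outside the gate were compared on either side of its limit. Cells just inside the limit, with exactly 3 of the 7 genes, numbered 16, 18 and 54, and the 18 endothelial identity genes described below, none of which belongs to the gate, summed to 1258, 1237 and 1933 CPM (UMIs scaled to a common total of 1e6) in them. Cells just outside, with exactly 2 genes, numbered 37, 39 and 82 and held 324, 244 and 306 CPM of the same genes. Cells with all 7 genes numbered 74, 34 and 41 and held 6101, 5884 and 7323 CPM. The cells with exactly 3 genes thus lay between the other 2 groups in each tumour.

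The genes of the gate are given as a description, since they chose the cells. In tumours 1, 2 and 3, Cldn5 (chromosome 16, 18776847 to 18778262), the main claudin of the brain endothelial tight junction, was at 3639.9, 2188 and 4382 CPM, and Pecam1, the adhesion molecule CD31, at 489, 476 and 583 CPM. The VEGF receptor genes Flt1 and Kdr were at 2039, 1775 and 1426 CPM and at 738, 357 and 859 CPM. The endothelial cadherin gene Cdh5 was at 445, 455 and 454 CPM, the phosphatase gene Ptprb at 1068, 968 and 824 CPM and Ly6c1 at 1492, 2135 and 513 CPM. Ly6c1 was lowest in tumour 3 and has near-identical gene copies, so its counts are uncertain. Of the genes the gate kept low, C1qa was at 16.2, 32.7 and 7.07 CPM and Tyrobp at 8.62, 23.1 and 3.93 CPM in the endothelial cells, and Rgs5 was at 64.6, 40.3 and 122 CPM. Of the 410 cells, 293 held no UMI of the 6 immune and mural gate genes.

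Smarcb1 (chromosome 10, 75896769 to 75921617 of GRCm38, minus strand), the gene that is floxed in this model and encodes a core subunit of the SWI/SNF chromatin remodelling complex, was present in endothelial cells of every tumour. It was at 40.9, 28.8 and 45.5 CPM in endothelial cells and at 2.10, 3.24 and 1.40 CPM in the remaining cells, and the groups did not overlap. The difference was 4.38 ± 0.37, adjusted p = 1.83e-06 (log2 ± SE, edgeR's quasi-likelihood F test, p adjusted by Benjamini and Hochberg over all genes tested, higher in 3 of 3 tumours), and it lay between 3.98 and 4.91 in all alternatives tried. Mural cells held 55.8, 42.9 and 50.4 CPM, which differed from the endothelial level by -0.25 ± 0.38 (adjusted p = 0.714). Immune cells held 20.2, 12.7 and 13.2 CPM, and the endothelial cells were 1.23 ± 0.34 above them (adjusted p = 0.0142), a call that was lost without tumour 1 (adjusted p = 0.0532) and without tumour 3 (0.109). The libraries count the 3′ ends of transcripts, and the sources used here do not give which exon is removed, so transcripts of a recombined allele would still be counted if they were made.

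Of the other subunit genes of the complex, 1 was higher and 6 were lower in endothelial cells than in all other cells, out of 19 tested subunit genes with Smarcb1, where 15.1% of all tested genes were higher and 16% lower. The list's median difference was -0.39, against -0.24 over all tested genes, and without tumour 1 the lower ones numbered 3. The higher one was Smarcd2, at 14.0, 42.3 and 29.1 CPM against 7.97, 9.28 and 12.8 CPM (1.53 ± 0.33, adjusted p = 0.00296). The lower ones were Smarcc1, Smarcc2, Smarcd3, Arid1a, Arid1b and Pbrm1. Among these Smarcd3 differed the most, at 10.8, 19.2 and 7.85 CPM against 60.5, 53.9 and 50.3 CPM (-2.11 ± 0.29, adjusted p = 8.29e-05). The ATPase genes Smarca2 and Smarca4 did not pass the test.

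The comparison of endothelial cells with all other cells was fitted over 16178 genes, of which 2439 (15.1%) were higher and 2581 (16%) were lower in endothelial cells at an adjusted p under 0.05, and 2309 and 2569 of them went the same way in all 3 tumours. The median difference over all tested genes was -0.24 on the log2 scale. The cells had been chosen by 7 endothelial transcripts, so genes that endothelial cells use were bound to lie higher, and counts of such genes describe the cells and are no independent evidence. Endothelial cells were also set against the mural and the immune cells, over 13738 genes in 1 fit. Against mural cells 1366 genes (9.94%) were higher and 1219 (8.87%) lower, and against immune cells 1993 (14.5%) were higher and 2768 (20.1%) lower. Each count of list members in this text is to be read beside the share for its comparison. The gene lists and their differences are shown in the plot of lists.

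**Figure D1:**
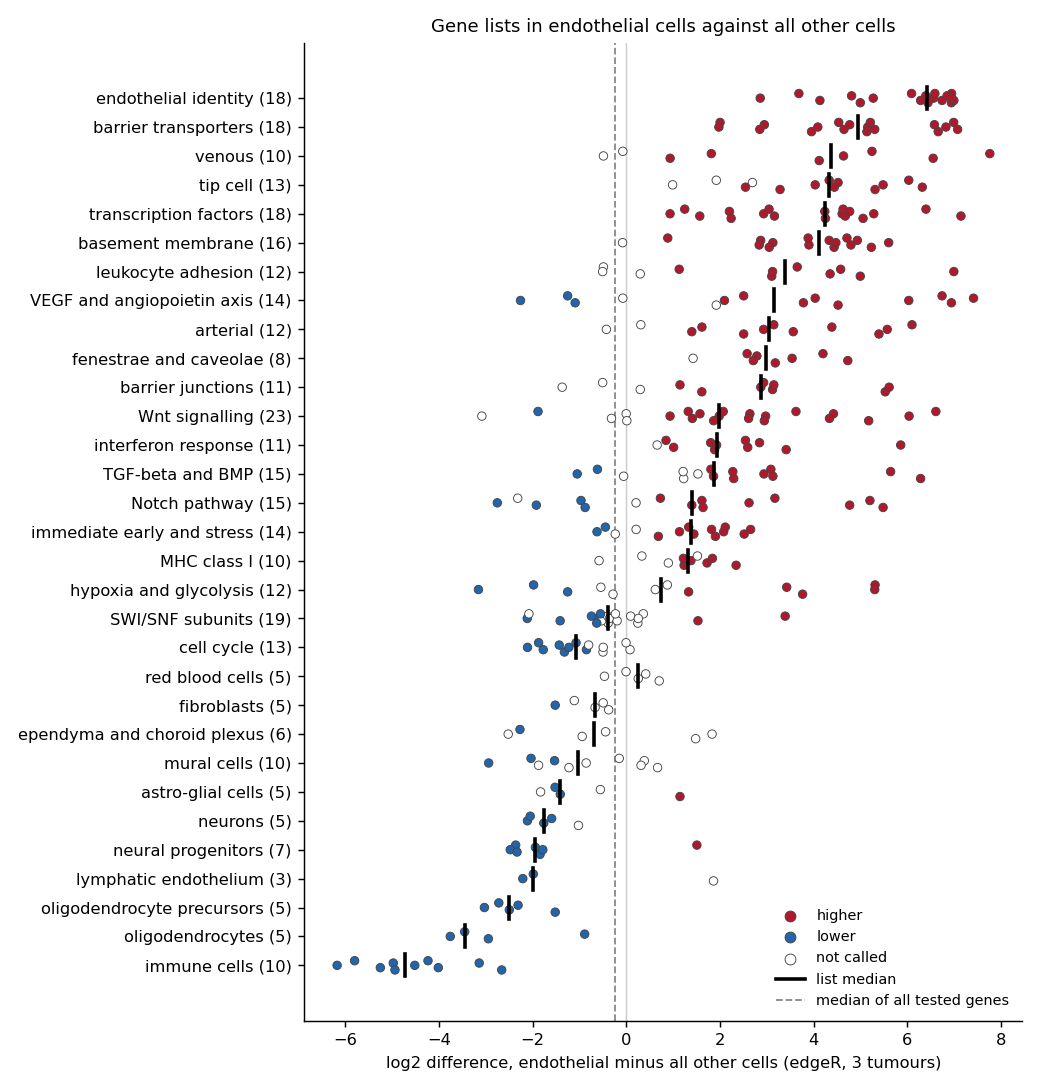
Each point is a gene of a list, placed by its log2 difference between endothelial cells and all other cells (edgeR, 3 tumours); red points were called higher, blue points lower, white points neither, thick bars are list medians, the dashed line is the median of all tested genes, and the number of tested genes follows each list's name. Endothelial identity genes (median 6.42), barrier transporters (4.95) and transcription factors (4.24) lay to the right of the dashed line at -0.24, while cell cycle genes (-1.07) lay to its left; Mog, Ndp and Selp, which had 0 UMIs in 1 group, are not drawn.

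Identity genes outside the gate describe the cells further, and since the gate favours such genes they are no independent check of the label. All 18 of the tested identity genes were higher in endothelial cells than in all other cells, with a median log2 difference of 6.42, and all 18 were higher than in immune cells. Icam2, an adhesion molecule of the luminal membrane, was at 171, 140.3 and 267 CPM against 1.06, 1.39 and 2.74 CPM (6.99 ± 0.26). Egfl7, a secreted factor of the vessel wall, was at 655, 707 and 637 CPM against 4.81, 6.35 and 6.69 CPM (6.94 ± 0.21), and Cyyr1 was at 227, 257 and 159 CPM against 1.54, 2.16 and 1.94 CPM (6.94 ± 0.25). The groups did not overlap for any of these genes. Against mural cells 16 of the 18 were higher, and Emcn and Gpr4 did not pass: Emcn, a sialomucin of the endothelial surface, was at 184, 129 and 298 CPM in endothelial and 146, 143 and 131 CPM in mural cells (0.65 ± 0.26, adjusted p = 0.104). The study's own markers of its endothelial cluster, Rassf9 and Tm4sf1, were picked on these samples and are not independent evidence. Rassf9 was at 179.8, 123 and 152 CPM in endothelial cells and had 0 UMIs in mural cells, at least 85.3-fold higher when the floor of 3 UMIs over the mural group is used. Tm4sf1, a small membrane protein, was at 310.1, 284 and 408 CPM in endothelial and 423, 329 and 537 CPM in mural cells (-0.27 ± 0.33, adjusted p = 0.642).

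Lists of other cell types differed in their endothelial sums between tumours. The 10 immune markers outside the gate were all called lower than in all other cells, a class that holds the immune cells. They summed to 47.4, 113 and 36.9 CPM in endothelial cells and to 13198, 10167 and 12324 CPM in immune cells. The remaining cells held 56.7, 154 and 76.9 CPM, and against them only Lyz2 was called lower and the other 9 were not called. Ptprc, the leukocyte antigen CD45, had 0, 0 and 1 UMIs in the endothelial cells. The 10 mural markers summed to 23.7, 38.4 and 371 CPM, against 5980, 3754 and 5032 CPM in mural cells and 143, 87.6 and 225 CPM in all other cells, so that in tumour 3 the endothelial sum was above that of all other cells. Acta2, smooth muscle actin, was the highest of these in tumour 3, at 2.15, 5.76 and 181 CPM. The 7 neural progenitor markers, among them Sox2, summed to 401, 457 and 661 CPM against 1801, 1862 and 1453 CPM in the remaining cells, and 6 of them were called lower and Nes, an intermediate filament gene that brain endothelium also expresses, higher. The lists of oligodendrocytes and of their precursors were lower in 5 of 5 genes each, neurons in 4 of 5, and astro-glial cells in 2 of 5 with Gja1 higher. Over all tested genes, 16% were lower. Of the 5 tested fibroblast genes 1, Pdgfra, was lower, which is near that share, and 4 were not called. The astro-glial list summed to 243, 455 and 131 CPM in endothelial and 268, 397 and 172 CPM in all other cells, and the fibroblast list to 46.3, 144 and 75.4 CPM against 290.5, 320.3 and 45.5 CPM, so that the endothelial sum was the higher one in tumour 2 for the former and in tumour 3 for the latter. Of 3 tested genes of lymphatic endothelium, Prox1 and Pdpn were lower and Lyve1 did not pass. Free RNA in the droplets was not removed, and its part in these sums was not tested.

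Markers of blood and choroid plexus were highest in tumour 2 in both endothelial and all other cells. Red blood cell genes summed to 358, 3693 and 7.85 CPM in endothelial and 422, 2656 and 0.945 CPM in all other cells, and the globin genes have near-identical copies. The ependyma and choroid plexus list summed to 4.31, 3697 and 0.785 CPM against 117, 1327 and 8.87 CPM. The endothelial sum of tumour 2 was nearly all Ttr, the transthyretin carrier of the choroid plexus. In tumour 2, 1873 of 1906 Ttr UMIs (98.3%) lay in a single cell.

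The promoters of the identity genes were read for short DNA words that factors of endothelial genes are known to bind. ETS factors such as ERG and FLI1 bind words with the core GGAA, and SOX factors of the SOX17 and SOX18 kind bind words like AACAAT. For 11 of the 18 identity genes the table used here, taken from RefSeq on GRCm38.p6, holds a promoter, and the 250 bases before the annotated start were searched on both strands for CCGGAA, for the related word CAGGAA and for the SOX word AACAAT. The word CAGGAA was in 11 of the 13 windows of these genes (84.6%; 10 of 11 genes, the exception being Eng), against 25.7% of all 32851 windows, 22.5% of those of the tested genes and 26.5% of those of genes called higher in endothelial cells. It was in 7 of 23 windows of barrier transporter genes (30.4%) and in 4 of 12 windows of tip cell genes (33.3%). CCGGAA was in 0 of the identity windows, against 12% of all windows, 19.3% of those of the tested genes and 15% of those of genes called higher. AACAAT was in 2 identity windows (15.4%), against 9.42, 5.61 and 5.53% of the same sets. Tek and Gpr4 are shown as identity genes, Esm1 and Apln as tip cell genes that varied between the tumours, and Slco1c1 and Mfsd2a as barrier genes; capitals mark CAGGAA or AACAAT on either strand, read 5′ to 3′ along the gene's strand.
Tek, chr4:94739039-94739288, plus strand: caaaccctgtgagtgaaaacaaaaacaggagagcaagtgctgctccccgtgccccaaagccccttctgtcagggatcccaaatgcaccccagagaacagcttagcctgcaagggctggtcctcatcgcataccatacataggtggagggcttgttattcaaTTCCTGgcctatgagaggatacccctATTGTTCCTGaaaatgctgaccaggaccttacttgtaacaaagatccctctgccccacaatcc
Gpr4, chr7:19212288-19212537, plus strand: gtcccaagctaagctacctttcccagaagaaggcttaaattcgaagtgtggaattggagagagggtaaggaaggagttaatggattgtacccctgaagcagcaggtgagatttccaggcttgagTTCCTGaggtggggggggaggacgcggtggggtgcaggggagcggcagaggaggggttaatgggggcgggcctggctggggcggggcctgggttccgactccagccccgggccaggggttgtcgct
Esm1, chr13:113209409-113209658, plus strand: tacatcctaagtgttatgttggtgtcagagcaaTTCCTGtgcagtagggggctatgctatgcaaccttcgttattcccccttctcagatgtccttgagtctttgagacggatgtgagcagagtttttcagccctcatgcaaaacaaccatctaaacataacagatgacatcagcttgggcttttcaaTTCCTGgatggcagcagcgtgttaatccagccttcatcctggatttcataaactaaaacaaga
Apln, chrX:48034854-48035103, minus strand: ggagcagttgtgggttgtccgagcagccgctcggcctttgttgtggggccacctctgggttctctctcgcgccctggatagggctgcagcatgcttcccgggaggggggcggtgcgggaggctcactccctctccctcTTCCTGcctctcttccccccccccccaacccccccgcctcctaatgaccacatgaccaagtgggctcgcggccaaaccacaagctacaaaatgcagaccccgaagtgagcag
Slco1c1, chr6:141524104-141524353, plus strand: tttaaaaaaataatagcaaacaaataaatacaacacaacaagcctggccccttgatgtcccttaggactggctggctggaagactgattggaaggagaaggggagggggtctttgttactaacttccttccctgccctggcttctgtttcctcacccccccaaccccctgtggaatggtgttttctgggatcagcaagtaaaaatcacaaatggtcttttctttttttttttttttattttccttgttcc
Mfsd2a, chr4:122961189-122961438, minus strand: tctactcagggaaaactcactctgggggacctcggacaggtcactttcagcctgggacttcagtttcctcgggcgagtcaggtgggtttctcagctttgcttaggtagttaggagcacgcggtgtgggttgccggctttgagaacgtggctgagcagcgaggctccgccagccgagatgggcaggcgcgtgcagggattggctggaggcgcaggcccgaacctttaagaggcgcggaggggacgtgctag
The Tek window held 2 CAGGAA matches and 1 AACAAT match, which overlaps 1 of them by shared bases. Esm1 held 2 CAGGAA matches, and Gpr4 and Apln held 1 each. The windows of Slco1c1 and Mfsd2a held none of the 3 words. A match is a description of the sequence, and no binding was measured.

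Every barrier transporter of the list stood out. All 18 were higher in endothelial cells than in all other cells (median log2 difference 4.95), in 3 of 3 tumours, and all 18 were also called higher than in mural and than in immune cells. Slc2a1 (chromosome 4, 119108711 to 119137983), the glucose transporter GLUT1, was at 972, 1249 and 983 CPM in endothelial cells against 26.5, 35.6 and 26.6 CPM in all other cells (5.30 ± 0.17, adjusted p = 1.74e-10). Slco1c1, which carries thyroxine, was at 1330.0, 1633 and 862 CPM against 11.8, 16.3 and 6.16 CPM (6.99 ± 0.21). Slco1a4, an organic anion transporter, was at 956, 1656 and 397 CPM against 8.0, 11.8 and 3.53 CPM (7.07 ± 0.19), and Abcb1a, the drug efflux pump P-glycoprotein, at 602, 732 and 243 CPM against 4.91, 7.80 and 2.50 CPM (6.82 ± 0.21). No tumour overlapped with the other cells in these genes, and the endothelial level of Slco1c1, Slco1a4 and Abcb1a was lowest in tumour 3. Mfsd2a, which imports lysolipids and restrains vesicle traffic, was at 429, 246 and 327 CPM against 8.34, 10.3 and 12.2 CPM (5.14 ± 0.26). In mural cells, Slco1c1 had 3 UMIs, Slco1a4 had 2 and Abcb1a had 4 in all.

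**Figure D2:**
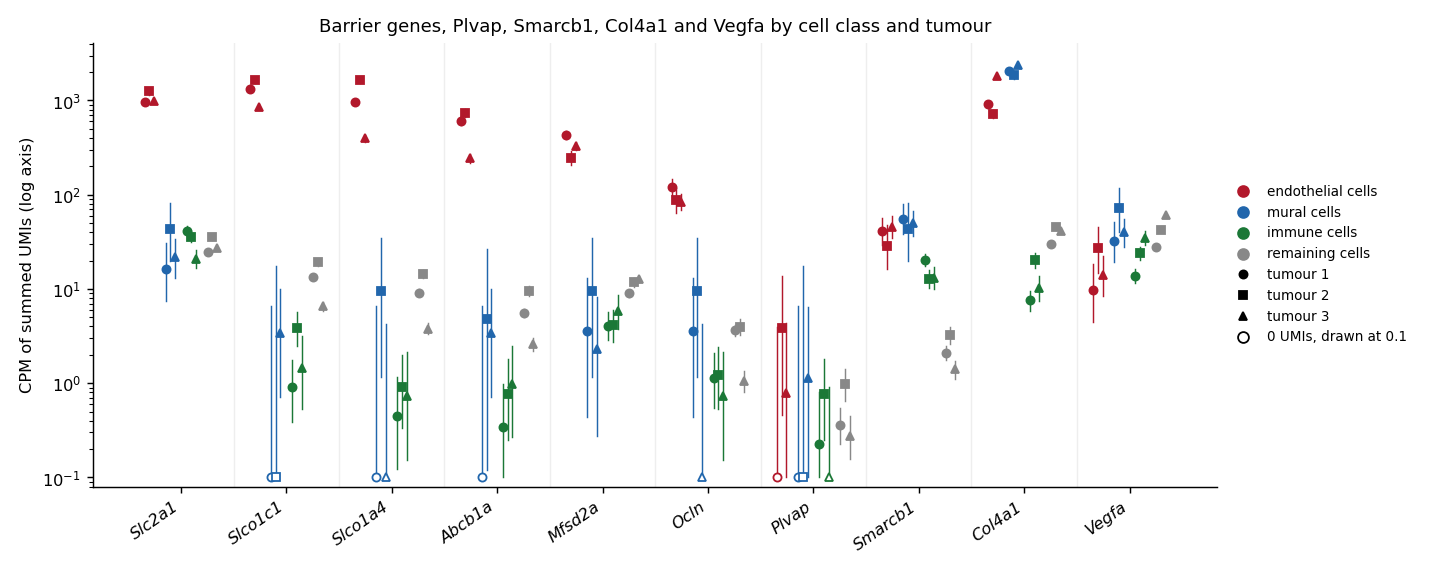
CPM of the summed UMIs on a log axis for barrier genes, Plvap, Smarcb1, Col4a1 and Vegfa in endothelial (red), mural (blue), immune (green) and remaining cells (grey), 1 symbol per tumour with its exact 95% Poisson interval and open symbols for 0 UMIs. The red points of Slc2a1 (972, 1249 and 983 CPM) stand above those of the other classes, those of Plvap lie at 0, 3.84 and 0.785 CPM, and for Col4a1 the red points lie below the blue ones in each tumour.

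Junction genes were more mixed. Of the 11 tested, 8 were higher, and Cgn, Jam2 and Jam3 did not pass the test. Ocln, encoding the tight junction protein occludin, was at 122, 88.4 and 84.0 CPM against 3.34, 3.47 and 1.02 CPM (5.53 ± 0.35, adjusted p = 4.41e-08). Lsr, encoding the receptor of tricellular junctions, was at 208, 142 and 145 CPM against 2.99, 3.96 and 4.13 CPM (5.61 ± 0.27). F11r, encoding JAM-A, was at 100.2, 84.5 and 142 CPM against 13, 13.7 and 14.0 CPM (3.12 ± 0.24), and against immune cells, at 91.4, 61.9 and 108 CPM, its difference did not pass the test (0.13 ± 0.27, adjusted p = 0.740). Ocln and Lsr were thus high in endothelial cells against each class, while F11r was at similar CPM in immune cells.

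Plvap (chromosome 8, 71497765 to 71511752), the diaphragm protein of fenestrated and immature vessels, was at the limit of detection. The endothelial cells of tumours 1, 2 and 3 held 0, 2 and 1 Plvap UMIs, or 1.10 CPM over all of them (exact 95% Poisson interval 0.227 to 3.22). All other cells held 0.341, 0.939 and 0.268 CPM, and the difference was 1.43 ± 1.23 (adjusted p = 0.407). A planned comparison of Plvap-positive with Plvap-negative cells could not be made, since 0 of 235 cells had a Plvap UMI at 2000 UMIs per cell. Genes of caveolae, the flask-shaped membrane pits, were present: 7 of 8 genes of this list, Plvap being the other, were higher than in all other cells. Cavin1 was at 182, 102 and 185 CPM against 5.83, 5.15 and 8.24 CPM (4.73 ± 0.23), and Cav1 was at 91.5, 71.1 and 106 CPM against 6.11, 9.31 and 10.5 CPM (3.54 ± 0.26). Cavin1 was at 148, 52.4 and 47.0 CPM in mural cells and did not pass the test against them (adjusted p = 0.0918), whereas Cav1 was 3.52 ± 0.48 above mural cells (adjusted p = 0.000258).

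Of 23 tested genes of Wnt signalling, 17 were higher and 2 lower, with a median of 1.98, and without tumour 1 or without tumour 3 none of them was called lower. Over all tested genes, 15.1% were higher and 16% lower. The ligand gene Wnt7a, the co-receptor gene Lrp6 and the target genes Axin2 and Tnfrsf19 did not pass the test. Lef1, the transcription factor that acts with beta-catenin, was at 195, 184 and 102 CPM against 34.5, 41.1 and 14.0 CPM (2.64 ± 0.22, adjusted p = 7.85e-07). Foxq1 and Foxf2, forkhead factors of barrier endothelium, were at 501, 338 and 261 CPM against 4.70, 4.58 and 2.91 CPM (6.61 ± 0.23) and at 160.5, 96.1 and 142 CPM against 2.54, 1.76 and 2.32 CPM (6.04 ± 0.24). Immune cells held 0.339, 0.153 and 0 CPM of Foxq1, and mural cells held 68.4, 33.3 and 40.1 CPM of Foxf2, which is also a pericyte gene. The common target Axin2 did not pass the test, at 52.8, 53.8 and 36.9 CPM against 57.7, 61.0 and 73.4 CPM (-0.32 ± 0.23, adjusted p = 0.315). The ligand gene Wnt7b was at 0, 3.84 and 7.07 CPM in endothelial and 7.12, 6.55 and 27.6 CPM in all other cells (-1.88 ± 0.57, adjusted p = 0.0225), and it missed the threshold in 5 of 13 alternatives, among them the fits without tumour 1 and without tumour 3. Ndp, encoding the ligand norrin, had 0 UMIs in endothelial cells, at least 3.53-fold lower than in all other cells.

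All 18 transcription factors of the endothelial list were higher than in all other cells (median 4.24), 14 of them also against mural cells. Against immune cells 15 were higher and Mef2c was lower. Erg, an ETS factor that maintains endothelial identity, was at 37.7, 53.8 and 48.7 CPM against 0.382, 0.512 and 0.221 CPM (7.14 ± 0.41, adjusted p = 1.85e-08) and had 0 UMIs in mural and immune cells, at least 25.1-fold and 298-fold higher. Sox7 and Sox17 were at 149, 113 and 170.4 CPM (6.40 ± 0.27) and at 174, 165 and 93.4 CPM (4.24 ± 0.46). Sox17 was also present in other cells of tumour 3, at 20.9 CPM against 5.15 and 5.04 CPM in tumours 1 and 2. Klf2, a factor induced by blood flow, was at 770.0, 521 and 601 CPM against 80.9, 73.1 and 73.9 CPM (3.16 ± 0.18), and Epas1, a hypoxia-inducible factor, at 716, 859 and 485 CPM against 15.6, 17.2 and 24.4 CPM (5.28 ± 0.25).

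Markers of arteries and veins were both present. Of 12 tested arterial genes 10 were higher than in all other cells, and of 10 venous genes 8 were higher (5 without tumour 3). Beside this, 15.1% of all tested genes were higher. In every tumour 9 of the arterial and 6 of the venous genes were higher. The venous gene Selp had 0 UMIs in all other cells, so it entered this test through its endothelial UMIs and could only lie higher. Selp and Gkn3 were too low to be tested against mural cells. Against mural cells 6 arterial genes were higher and 2, Mgp and Gja4, lower, out of 11, and 4 of 9 venous genes were higher and Nr2f2 lower. Vwf, the clotting factor of larger vessels and veins, was at 377, 486 and 212 CPM against 2.74, 6.55 and 3.39 CPM (6.55 ± 0.27). Slc38a5, a glutamine transporter of venous and capillary endothelium, was at 449, 215 and 739.6 CPM against 2.17, 2.31 and 2.02 CPM (7.76 ± 0.38) and was highest in tumour 3. Nr2f2, the venous fate factor, was at 71.1, 123 and 51.0 CPM against 68.1, 71.2 and 16.7 CPM (0.94 ± 0.27, adjusted p = 0.0187) and lower than in mural cells, which held 506, 538 and 215 CPM (-2.24 ± 0.30, adjusted p = 0.000228). Of the arterial genes, Bmx was at 18.3, 34.6 and 8.64 CPM (5.57 ± 0.89), Sema3g at 30.2, 36.5 and 37.7 CPM (5.39 ± 0.59) and Gkn3 at 3.23, 1.92 and 3.93 CPM from 9 UMIs in all. Edn1, encoding the vasoconstrictor endothelin-1, was at 317, 315 and 73.0 CPM (6.10 ± 0.23), with tumour 3 below the other tumours. The arterial list as a whole summed to 782, 809 and 843 CPM in endothelial, 281, 368 and 263 CPM in all other and 7306, 6245 and 4921 CPM in mural cells, in which Mgp was the highest member.

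To compare cells at equal depth, each cell was thinned to 1000 UMIs, which left out 15, 25 and 51 shallower endothelial cells. Slco1c1 then had a UMI in 65.9, 79.6 and 48.5% of 123, 93 and 103 endothelial cells, and in 0.0912, 0.854 and 0% of immune cells at the same depth, whose median before thinning was 3782.5, 5440 and 2686 UMIs. Slc2a1 was found in 60.2, 73.1 and 50.5% of endothelial and 3.46, 3.31 and 2.21% of immune cells, and unthinned in 86.2, 80.5 and 62.3% of all endothelial cells. Spock2, encoding a proteoglycan of the endothelial Wnt list, was found in 78.9, 79.6 and 59.2%. At the same depth, Mfsd2a was found in 30.9, 14.0 and 18.4%, Vwf in 26.8, 39.8 and 19.4% and Slc38a5 in 26.8, 17.2 and 24.3% of endothelial cells. Slco1c1, Slc2a1, Spock2 and Vwf had their lowest share in tumour 3, and Mfsd2a and Slc38a5 in tumour 2. Bmx was found in 0, 4.30 and 2.91%, and Gkn3 and Plvap in 0 cells, which allows a share of cells with a UMI of up to 2.44, 3.23 and 2.91% (3 counts). Mfsd2a and Vwf were found together in 17, 6 and 2 cells, with Mfsd2a alone in 21, 7 and 17 and Vwf alone in 16, 31 and 18. Mfsd2a and Slc38a5 were found together in 11, 2 and 8 cells and Mfsd2a and Bmx in 0, 0 and 0, with Bmx alone in 0, 4 and 3. No background for these joint counts was computed.

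**Figure D3:**
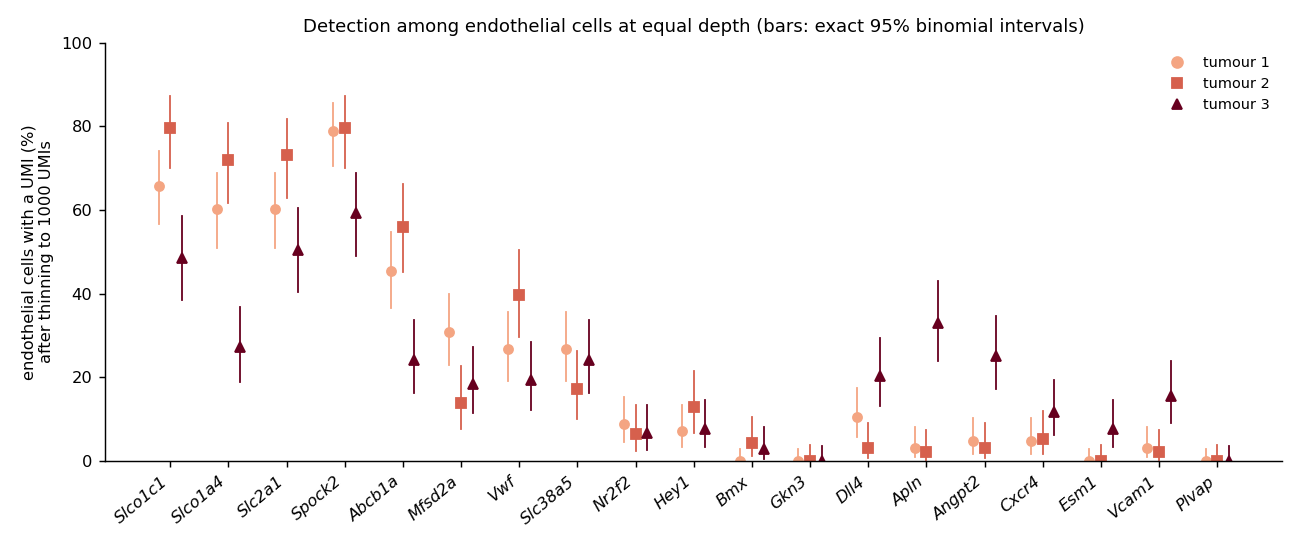
Share of endothelial cells with at least 1 UMI of a gene after thinning to 1000 UMIs, by tumour (circle 1, square 2, triangle 3) with exact 95% binomial intervals, for barrier, venous, arterial, tip cell and fenestration genes. Slco1c1 reached 65.9, 79.6 and 48.5%, Apln 3.25, 2.15 and 33.0% with tumour 3 standing apart, and Plvap stayed at 0.

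Some tip cell genes differed widely between the tumours and others little. Over all tumours, 10 of 13 tip cell genes were higher than in all other cells (median 4.33), and against mural cells 7 were higher and Unc5b, a netrin receptor gene, lower. Apln, a secreted peptide of sprouting vessels (chromosome X, 48025146 to 48034853), was at 67.8, 17.3 and 706 CPM in endothelial and 3.16, 4.78 and 13.5 CPM in all other cells (4.52 ± 0.55, adjusted p = 2.98e-05). Angpt2, which loosens the contact between endothelium and mural cells (chromosome 8, 18690263 to 18741562), was at 26.9, 15.4 and 456 CPM against 4.05, 5.09 and 6.0 CPM (4.03 ± 0.74, adjusted p = 0.000891). Esm1 (chromosome 13, 113209659 to 113218098), an endothelial proteoglycan induced by VEGF, was at 1.08, 1.92 and 137 CPM against 6.58, 2.53 and 3.53 CPM, and its difference of 2.69 ± 1.10 did not pass (adjusted p = 0.0808). These 3 genes were singled out after their values were seen. In each the endothelial cells of tumour 3 were the highest, and Esm1 in tumours 1 and 2 rested on 1 UMI each.

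Without tumour 3 the Esm1 difference became -1.72, while Apln and Angpt2 remained called in all 13 alternatives, with ranges of 3.52 to 5.48 and 2.35 to 5.33. Pgf, encoding placental growth factor, was at 3.23, 0 and 98.1 CPM (1.92 ± 0.75, adjusted p = 0.0685) and Cxcr4, encoding the receptor for Cxcl12, at 38.8, 55.7 and 177 CPM (0.99 ± 0.64, adjusted p = 0.263). Without tumour 3 these differences were -0.95 and -0.40. Against mural cells, Apln differed by 7.39 ± 1.11, adjusted p = 0.000569, a call lost without tumour 3 (0.0687), and Angpt2 by 3.68 ± 1.07, adjusted p = 0.0319, lost without tumour 1 (0.0881) and without tumour 3 (0.626). Dll4, the Notch ligand of the tip cell, varied less, at 101, 76.9 and 187 CPM against 2.26, 2.08 and 4.65 CPM (5.48 ± 0.24). Adm, encoding adrenomedullin, was at 115, 61.5 and 130.3 CPM (5.31 ± 0.28), and Pdgfb, which recruits pericytes, at 266, 219 and 285 CPM (4.44 ± 0.33), and both were lowest in tumour 2. For Pdgfb the highest tumour was 1.30 times the lowest.

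With 1 library per tumour, the tumours cannot be tested against each other, and the spread over cells is given instead. The Apln UMIs of tumour 3, 899 in all, came from 63 of 154 cells with at most 177 in 1 cell, and the 581 Angpt2 UMIs came from 49 cells. The 174 Esm1 UMIs came from 26 cells. Without the 5 deepest cells, tumour 3 kept 757 CPM of Apln, 511 CPM of Angpt2 and 177 CPM of Esm1. Pgf was more concentrated, with 65 of its 125 UMIs in 1 cell. At 1000 UMIs per cell, Apln was found in 3.25, 2.15 and 33.0% and Angpt2 in 4.88, 3.23 and 25.2% of endothelial cells. Dll4 was found in 10.6, 3.23 and 20.4%, Esm1 in 0, 0 and 7.77% and Cxcr4 in 4.88, 5.38 and 11.7%, and Cxcr4 was found in 3.74, 7.04 and 5.51% of immune cells. The tumour order for Apln, Angpt2 and Esm1 at equal depth again had tumour 3 highest.

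Genes of other lists also differed between the tumours. Cxcl12, the ligand of Cxcr4, was at 380.1, 744 and 71.5 CPM (4.58 ± 0.33 against all other cells), Ly6a at 597, 845 and 249 CPM and Slco1a4 at 956, 1656 and 397 CPM, each lowest in tumour 3. Mgp, a matrix protein of arteries and mural cells, was at 40.9, 30.7 and 357 CPM in endothelial and 6789, 5597 and 4493 CPM in mural cells. Ackr1, a chemokine-binding receptor of venules, was at 8.62, 3.84 and 148 CPM, and 160 of its 189 UMIs in tumour 3 (84.7%) lay in 1 cell. The mural list moved with tumour 3 as well, as given above, and its part in these differences was not tested. Depth differed too, with a median of 1625.5 UMIs per endothelial cell in tumour 3.

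**Figure D4:**
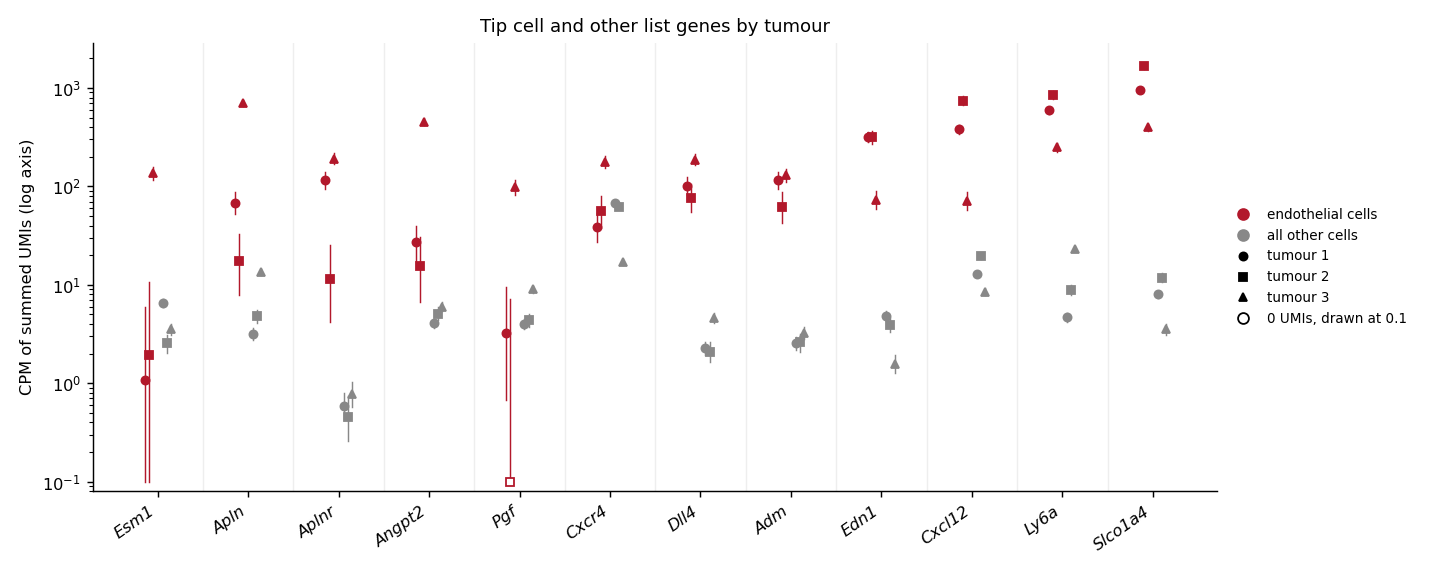
CPM of the summed UMIs on a log axis for tip cell genes and for list genes that differed between tumours, in endothelial cells (red) and all other cells (grey), 1 symbol per tumour with its exact 95% Poisson interval and open symbols for 0 UMIs. In tumour 3 the red points of Esm1, Apln and Angpt2 reach 137, 706 and 456 CPM, while Cxcl12 lies at 71.5 CPM.

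In the VEGF and angiopoietin axis, both receptor and ligand genes were among the higher ones. Of the receptors, Tek, the angiopoietin receptor TIE2, was at 198, 194 and 134 CPM against 1.35, 2.11 and 1.92 CPM (6.74 ± 0.27, adjusted p = 8.25e-10), and its partner Tie1 at 247, 211 and 267 CPM against 1.43, 2.16 and 3.13 CPM (6.94 ± 0.27). Flt4, encoding VEGFR3, was at 94.8, 57.6 and 119 CPM (6.03 ± 0.34), Nrp1, encoding the VEGF co-receptor neuropilin-1, at 249.8, 98.0 and 373 CPM (3.78 ± 0.46), and Aplnr, the receptor of the Apln peptide, at 115, 11.5 and 191 CPM (7.41 ± 0.51). Of these, Flt4, Nrp1 and Aplnr were lowest in tumour 2. The ligand gene Vegfa was lower in endothelial than in all other cells, at 9.69, 26.9 and 14.1 CPM against 26.2, 39.0 and 58.3 CPM (-1.25 ± 0.30, adjusted p = 0.00653), and also lower than in mural cells, at 32.4, 71.5 and 40.1 CPM (-1.40 ± 0.33, adjusted p = 0.0109). The call against all other cells was lost without tumour 3 and without the tumour block, with an adjusted p of up to 0.0892. The ligand genes Vegfb and Angpt1 were lower than in all other cells too. The ligand genes Vegfc and Vegfd were higher, as were Apln and Angpt2 above. Vegfc, a ligand of VEGFR3, was at 12.9, 13.4 and 14.1 CPM against 3.41, 3.22 and 1.70 CPM (2.51 ± 0.51, adjusted p = 0.00204), and Vegfd was at 4.31, 11.5 and 0.785 CPM against 1.06, 1.99 and 0.457 CPM (2.10 ± 0.75, adjusted p = 0.0490). Vegfd rested on few UMIs and was not called against mural cells. Of the 14 tested genes 9 were higher and 3 lower (1 without tumour 1), and the ligand gene Pgf and the co-receptor gene Nrp2 did not pass. Over all tested genes, 15.1% were higher and 16% lower.

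Of 15 Notch pathway genes, 9 were higher and 4 lower than in all other cells, where 15.1% of all tested genes were higher and 16% lower. The endothelial ligand Jag2 was at 109.8, 88.4 and 95 CPM against 1.92, 4.70 and 2.82 CPM (5.20 ± 0.33), and the endothelial receptor Notch4 at 75.4, 49.96 and 119 CPM against 3.15, 2.93 and 3.51 CPM (4.77 ± 0.29). The lower genes were Dll1, Notch2, Rbpj and Lfng. Of 15 genes of TGF-beta and BMP signalling, 9 were higher and 2, Tgfbr1 and Id2, lower (1 lower when each tumour was left out in turn). The lower ones were near the 16% of all tested genes. The co-receptor Eng was at 506, 327 and 703 CPM against 6.28, 4.35 and 11.6 CPM (6.28 ± 0.20), and the receptor Acvrl1, or ALK1, at 171, 138 and 159 CPM against 2.58, 2.93 and 5.14 CPM (5.64 ± 0.26). Tgfbr2 was at 176, 188 and 173 CPM in endothelial cells, above all other cells (3.13 ± 0.24), and its difference from immune cells did not pass the test, although it was higher in 3 of 3 tumours, at 144, 124 and 108 CPM (0.35 ± 0.15, adjusted p = 0.0855).

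Most basement membrane genes were higher in endothelial cells than in all other cells, a class that includes the mural cells, and they were mixed against mural cells. Of 16 genes, 15 were higher in endothelial than in all other cells (median 4.12), Col15a1 being the exception. Against mural cells, 4 were higher (Lama5, Hspg2, Sparc and Fn1), 2 were lower (Col15a1 and Col18a1), and the other 10 did not pass. The list's median difference from mural cells was -0.00041. This comparison rests on 114, 53 and 69 mural cells, so genes that did not pass may still differ. Col4a1 (chromosome 8, 11198423 to 11312826), the main collagen of the basement membrane, was at 926, 715 and 1827 CPM in endothelial, 2051, 1877 and 2371 CPM in mural and 42.7, 51.3 and 71.6 CPM in all other cells. It was 4.44 ± 0.22 above all other cells and -0.79 ± 0.33 from mural cells (adjusted p = 0.130), lower in 3 of 3 tumours. Lama4, the laminin chain of the endothelial membrane, was at 167, 78.8 and 329.8 CPM in endothelial and 158, 90.5 and 205 CPM in mural cells (0.37 ± 0.30, adjusted p = 0.454). Lama5 was at 37.7, 38.4 and 63.6 CPM against 7.20, 0 and 0 CPM in mural cells (4.38 ± 0.87, adjusted p = 0.00385), and Hspg2, encoding perlecan, at 186, 146 and 347 CPM against 52.2, 76.2 and 84.7 CPM (1.81 ± 0.24, adjusted p = 0.000236).

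Genes for contact with leukocytes and for antigen presentation were read against immune cells as well. Of 12 tested adhesion genes, 9 were higher than in all other cells, beside 15.1% of all tested genes, and 7 of the 12 were higher in every tumour. Selp is among the 9 and had 0 UMIs in all other cells. Icam2 is among them too, as is Cd34, at 406, 323 and 826 CPM against 17.9, 18.3 and 13.3 CPM (5.00 ± 0.34). Vcam1 did not pass the test, at 60.3, 74.9 and 108 CPM against 149, 117 and 106 CPM (-0.49 ± 0.25, adjusted p = 0.160). Of 10 genes of MHC class I presentation, 6 were higher than in all other cells, and against immune cells 6 were lower. Over all tested genes, 15.1% were higher than in all other cells and 20.1% lower than in immune cells. H2-D1 was at 265, 213 and 519.8 CPM in endothelial, 141, 206 and 105 CPM in all other and 846, 800.1 and 837 CPM in immune cells, with differences of 1.23 ± 0.34 and -1.52 ± 0.29. Its counts are uncertain because class I genes are near-identical. Tap2, a subunit of the peptide transporter, was at 23.7, 11.5 and 46.3 CPM against 5.67, 7.49 and 4.85 CPM (2.34 ± 0.47, adjusted p = 0.00172). Endothelial cells thus lay between the other cells as a whole and the immune cells for H2-D1.

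Of 11 interferon response genes, 10 were higher than in all other cells, and against mural cells 3 were higher (Bst2, Ly6e and Ly6a) and 4 lower (Ifitm2, Ifitm3, Ifit3 and Isg15). Over all tested genes, 15.1% were higher than in all other cells, and 9.94% were higher and 8.87% lower than in mural cells. Ly6a, the surface antigen SCA-1, was at 597, 845 and 249 CPM against 4.66, 8.91 and 23.1 CPM (5.86 ± 0.56), and it had 3 UMIs in mural cells. Of 14 immediate early and stress genes, which tissue dissociation is known to induce, 10 were higher and 2 lower than in all other cells (1 lower without tumour 2 and 0 without tumour 3), but 2 were higher (Atf3 and Dusp1) and 5 lower than in mural cells. Dusp1 was at 690.3, 534 and 369 CPM against 96.2, 128 and 58.2 CPM (2.65 ± 0.20), Atf3 at 495, 334 and 488 CPM (2.52 ± 0.31) and Junb at 1564, 1001 and 966 CPM (2.11 ± 0.18). Of 12 hypoxia and glycolysis genes, 5 were higher and 3 (Vegfa, Egln3 and Hk2) lower than in all other cells, beside 15.1% and 16% of all tested genes. Among the higher ones, Ndrg1 was at 63.5, 104 and 11.8 CPM against 3.46, 7.91 and 1.69 CPM (3.76 ± 0.32), and Slc2a1 and Adm have been described above.

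Of 13 cell cycle genes, 8 were lower in endothelial than in all other cells (median -1.07), where 16% of all tested genes were lower. Cdk1, Pcna, Mcm2, Mcm5 and Tyms did not pass the test. The count of lower genes lay between 4 and 9 in the alternatives, with 4 without the tumour block and 5 without tumour 1. Mki67 was at 37.7, 5.76 and 47.1 CPM in endothelial and 72.9, 59.4 and 136 CPM in all other cells (-1.43 ± 0.31, adjusted p = 0.00321), and Top2a, the mitotic topoisomerase, at 59.2, 44.2 and 94.2 CPM against 246, 158 and 334 CPM (-1.77 ± 0.18, adjusted p = 7.17e-06). Without the tumour block Mki67 missed the threshold (adjusted p = 0.153). Against mural cells Top2a was the 1 gene of this list called lower (-1.54 ± 0.41, adjusted p = 0.0214). At 2000 UMIs per cell, a UMI of Mki67 or Top2a was found in 8 of 105, 4 of 66 and 3 of 64 endothelial cells, which is 7.62, 6.06 and 4.69%. The remaining cells stood at 14.1, 11.1 and 20.8%, immune cells at 11.1, 10.2 and 17.6% and mural cells at 5.81, 16.1 and 11.8%. The endothelial mean of 6.12 ± 1.47% (SD, n = 3) differed by -9.22 ± 6.05 points from that of the remaining cells, 15.3 ± 5.00%, and was lower in 3 of 3 tumours, with an exact two-sided sign-flip permutation p of 0.25, the smallest that 3 tumours allow. Free RNA can give such UMIs to cells that do not cycle, and its part was not tested.

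**Figure D5:**
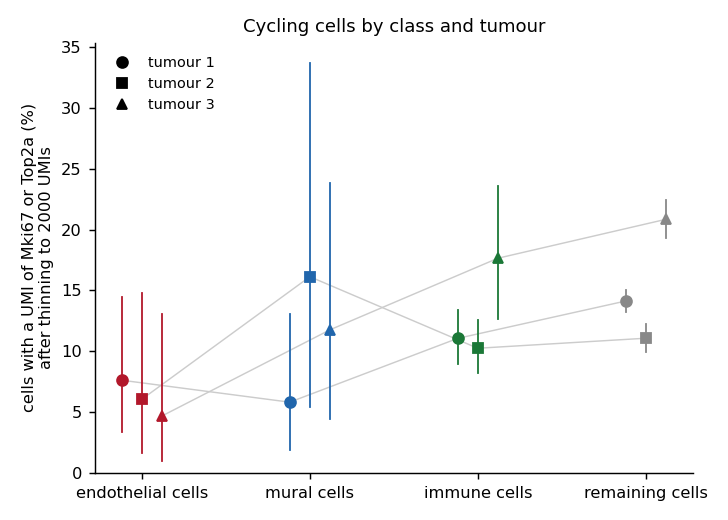
Share of cells with a UMI of Mki67 or Top2a after thinning to 2000 UMIs, by class and tumour (circle 1, square 2, triangle 3), with exact 95% binomial intervals and grey lines that join the classes of a tumour. Endothelial cells lie at 7.62, 6.06 and 4.69%, below the remaining cells at 14.1, 11.1 and 20.8% in each tumour.

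Outside the lists, the genes furthest above all other cells by the naming rule included Tmem252, Ctsw, AU021092, Adgrl4, Cd93, Zfp366, Gm32688, Gimap5 and Scgb3a1. Adgrl4, an adhesion receptor of angiogenic endothelium also called ELTD1, was at 804, 636 and 952 CPM (7.25 ± 0.22), and Cd93, a lectin-like receptor of the endothelium, at 871, 580.2 and 1483 CPM (7.19 ± 0.24). Tmem252 was at 468, 592 and 388 CPM against 1.88, 5.24 and 2.91 CPM in all other cells (7.40 ± 0.28). Scgb3a1, a secretoglobin, ran from 167 CPM in tumour 3 to 1070.4 CPM in tumour 1 (6.99 ± 0.25). The genes furthest below included Rac2, Ccl12, Cd84, Adgre1, Bin2, Ptpn6, Tmem119, Ifi207 and AC119264.1, each with 0 UMIs in endothelial cells. Several of these are genes of microglia and other leukocytes. Rac2 was at least 14.9-fold and Adgre1, encoding the macrophage antigen F4/80, at least 12.2-fold lower than in all other cells.

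Against mural cells, the named genes with 0 mural UMIs were Paqr5, Ctsw, Gm32688, Wfdc1, Fgd5, Gimap5, Zfp366, Unc45b, Flvcr2 and Ccm2l. Paqr5 was at 176, 261 and 45.5 CPM in endothelial cells, at least 71.6-fold higher, and Flvcr2, a choline transporter of the brain endothelium, was at 71.1, 38.4 and 44.0 CPM, at least 28.5-fold higher. In the other direction, Pla1a and Adap2os had 0 endothelial UMIs. Aspn, Ednra, Art3, Cox4i2, Ccl11, Adap2 and Ifitm1 had between 2 and 14 UMIs in endothelial cells. Of these, Aspn, a matrix proteoglycan gene, was at 1.08, 0 and 4.71 CPM in endothelial and 615, 338 and 509.6 CPM in mural cells (-7.62 ± 0.51). Against immune cells the genes furthest above included Tmem252, Tbx1, Wfdc1, Adgrl4 and Adgrf5, the last of them an adhesion receptor gene, at 562, 674 and 514 CPM against 0.339, 0.766 and 0.734 CPM (9.79 ± 0.30).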

How the data were processed

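The 3 R26-SHH tumours were profiled, 1 library each, with the 10x Genomics 3′ assay. For 31053 genes, the values deposited are whole UMI counts in each barcode, which the authors made with Cell Ranger 3.1.0 on mm10 (versions per the submitters' processing notes). All barcodes in the files held at least 500 UMIs, and the further removal of cells that the study describes was not applied here. Gene coordinates came from GENCODE vM21 (GRCm38) and promoter sequences from RefSeq (GRCm38.p6).

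Endothelial cells were taken by the gate given above. Immune and mural cells were those with at least 2 genes of their own gate set, fewer than 2 of the other set and fewer than 3 of the 7 endothelial genes, and all others within the mitochondrial limit were the remaining cells. Raw counts were summed per tumour and class (n = 3 tumours) and tested with edgeR 4.0.16 (filterByExpr, TMM, quasi-likelihood F test) in R 4.3.3, with Benjamini-Hochberg adjustment over all tested genes and 0.05 as threshold. The tumour entered as a block, because the classes of 1 tumour come from the same animal. Log2 differences are endothelial minus the other class, with SE. The 13 gate genes and 13 mitochondrial genes were left out of the counts of calls. CPM were computed from the summed counts, with exact 95% Poisson intervals. For detection, cells were thinned to 1000 or 2000 UMIs, leaving out shallower cells.

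The cells, the gene lists and the rule for named genes were chosen with earlier results of these data known. The rule named a fixed set of genes, up to 3 members per list with the largest difference that went the same way in 3 of 3 tumours, and outside the lists up to 10 genes per comparison and direction with at least 20 UMIs in every sum of the higher group. Other genes that are named as the members of a small count, and genes named because they differed between tumours, were chosen after their values were seen. A few genes that the rule named are not reported here. On simulated data in which 100 genes were changed by a log2 fold of 2 and 100 by 1, the test against all other cells found 98 and 30 of them with 1 false call among 16161 genes. In the simulated mural comparison it found 84 of 94 and 16 of 90, with 1 false call among 9132 genes, and in the immune comparison 91 and 29 of 100 each, with 2 false calls among 12235 genes. The simulation gave every gene the same spread, held no tumour differences other than depth, and changed only genes of higher counts. Its mural and immune comparisons fitted 2 classes, not the joint fit used for the data. These figures therefore do not give the recovery or the false calls in the data themselves.

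No doublets were removed in the main analysis. Scrublet in scanpy 1.11.5 marked 0, 1 and 1 cells at its own threshold and so had not worked, and a score quantile (0.8% per 1000 cells) was used as an alternative. DESeq2 1.42.0, median-ratio size factors, no filter on low counts, no block, other gates, a depth minimum and leaving out each tumour were the further alternatives. Python 3.11.15 with numpy 2.4.6, pandas 2.3.3, scipy 1.17.1 and matplotlib 3.10.9 did the rest.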

Additional observations from a re-analysis of the deposited data

Results flagged for a closer look

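Of the 6714 barcodes over the mitochondrial limit, which no comparison uses, 49 (0.730%) passed the other steps of the endothelial gate, in 14, 14 and 21 barcodes of tumours 1, 2 and 3. They were singled out because they carry endothelial transcripts outside the cells described.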

How the results depend on the processing

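Leaving out each tumour gave 1782 to 2601 higher and 1499 to 2771 lower genes against all other cells, 652 to 1099 and 530 to 1042 against mural cells, and 1304 to 1754 and 1077 to 2064 against immune cells. The low ends came without tumour 1, and without tumour 3 the counts were 821 and 654 against mural cells and 1498 lower against immune cells; these fits had fewer samples. Without the pairing of classes by tumour, that is with no replicate block, 2061 genes were higher and 1426 lower against all other cells, 1165 and 762 against mural cells, and 1731 and 1322 against immune cells; of the 362 values of named genes 41 lost their call and 1 changed direction. For the remaining alternatives these counts stayed within 1.5 times. With at least 2 of the 7 gate genes the mean share of endothelial cells was 2.89%.

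Of 4222 alternative values of named genes, 3969 kept direction and call, 168 lost and 67 gained a call and 18 changed direction. Of 546 alternative counts of list members against all other cells, 33 moved by over 1.5 times, 7 of them without tumour 3, 5 without tumour 1 and 5 with no replicate block. Venous genes higher numbered 5 without tumour 3 and with no block (8 in the main analysis), and cell cycle genes lower 5 without tumour 1 and 4 with no block. SWI/SNF subunit genes lower numbered 3 without tumour 1 (6 in the main analysis). The other moved counts were of lists with 0 to 3 lower members in the main analysis. The reversals fell without tumour 3 for Cxcr4, Esm1, Pgf, Tap2, H2-T23, Pdgfra and Syt1, without tumour 1 for Atf3 and Gfap, and without tumour 2 for Olig2 and Pdpn. Over the fits that leave out 1 tumour, the differences against all other cells ran from -0.40 to 1.86 for Cxcr4, -1.72 to 4.02 for Esm1 and -0.95 to 2.64 for Pgf. Against immune cells they ran from -0.58 to 0.93 for Cxcr4, -0.79 to 3.39 for Esm1, -0.38 to 4.35 for Pgf, -0.0085 to 0.85 for Tap2 and -0.53 to 0.027 for Atf3. Against mural cells they ran from -0.048 to 2.25 for Cxcr4, -0.66 to 0.53 for H2-T23, -2.14 to 0.41 for Pdgfra and -0.29 to 0.59 for Syt1, and from -0.60 to 0.28 for Gfap, -1.83 to 6.13 for Olig2 and -2.38 to 0.21 for Pdpn. H2-T23 was 0.020 against mural cells with no replicate block, Mag 7.04 against mural cells after Scrublet, and Higd1b 0.12 against other cells without endothelial gate genes. None of these reversed values passed the test, and the cause was not tested. RLE scaling moved the median of all genes against immune cells from -0.20 to -0.11. Genes at a few UMIs, such as Plvap with 3, are limited by depth. The comparison by Plvap could not be run under any setting.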

Other observations

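In tumour 3, 26 endothelial cells held an Esm1 UMI, against 1 cell each in tumours 1 and 2. A comparison of the 26 with the 77 Esm1-negative endothelial cells of at least 1000 UMIs was chosen after the values were seen, comes from 1 library, and is given as a description with no test. The Esm1-positive cells were deeper, with a median of 11672 UMIs against 1269 in all Esm1-negative cells of that tumour, and detection of Esm1 itself rises with depth. The 1269 includes cells below 1000 UMIs that the comparison leaves out, so the gap to the 77 compared cells is smaller. The exact 95% Poisson intervals cover the counting of UMIs and not the spread between cells. Apln was at 1681 CPM (1559 to 1809.8) against 216 CPM (186 to 251), and Angpt2 at 1176 CPM (1075 to 1285) against 97.7 CPM (77.5 to 122). Adm was at 313 CPM (262 to 372) against 37.9 CPM (25.7 to 53.8) and Cxcr4 at 380.1 CPM (323 to 444) against 72.1 CPM (54.9 to 93.0). Other genes were lower in the Esm1-positive cells. Aplnr was at 95.6 CPM (68.3 to 130.2) against 242 CPM (209 to 278). The mural genes Acta2, Rgs5 and Tagln had 0 UMIs in the Esm1-positive cells, each with an upper bound of 8.82 CPM, against 257, 179.6 and 80.6 CPM in the Esm1-negative ones. The cell cycle genes Top2a, Mki67 and Birc5 also had 0 UMIs, against 145, 73.3 and 56.2 CPM, as did Ackr1, against 231 CPM. Most Ackr1 UMIs of tumour 3 lay in 1 cell, as given above, so its 231 CPM describes mainly that cell. Few endothelial cells of tumour 3 held a Mki67 or Top2a UMI at equal depth, as given above. How many Esm1-negative cells gave the cell cycle and mural UMIs is not given here. Of the barrier transporters, Slc2a1 was at 995 CPM (901 to 1095) against 997 CPM (929.7 to 1068) and Abcb1a at 273 CPM (225 to 327) against 237 CPM (205 to 273).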
